A study of Mus musculus with 12 samples.

Results

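Dietary fructose enters cells through hexose transporters and is then broken down by a short set of enzymes, and the liver RNA of 7 genes of this route was followed here in fasted and sugar-fed mice of both genotypes. The genes were taken by name as a list of this route and are *Slc2a2*, *Slc2a5*, *Slc2a8*, *Khk*, *Tkfc*, *Glyctk* and *Sord*. All 7 were found among the 16346 genes of the deposited table, and all 7 passed the filter on low values that left 12366 genes for testing. The libraries were made from whole liver RNA of C57BL6J mice aged 12 weeks. Control mice were Med13 fl/fl, and MED13-LKO mice carried the floxed allele with *Alb*-Cre, which the authors describe as a hepatocyte-selective knockout. Within each genotype, 1 group was fasted overnight for 16 h, 1 was refed for 4 h with normal chow (LabDiet) and 30% sucrose in the water, and 1 was refed for 4 h with the same chow and 30% fructose in the water. Each of the 6 groups held 2 mice, 12 libraries in all, and no source says whether the mice were littermates. No group was refed chow with plain water, and the authors killed fasted mice earlier in the day than fed mice. In comparisons with fasted mice, refeeding with chow, the sugar and the hour therefore cannot be told apart. Below, "with sucrose" and "with fructose" name the refed groups.

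The fructose route begins with the facilitative transporters GLUT2 (*Slc2a2*), GLUT5 (*Slc2a5*) and GLUT8 (*Slc2a8*), which carry hexoses across membranes. GLUT2 is the main hexose transporter of hepatocytes and GLUT5 the fructose transporter of the small intestine. In the liver ketohexokinase (*Khk*) phosphorylates fructose to fructose 1-phosphate, this is split into dihydroxyacetone phosphate and glyceraldehyde, and triokinase (*Tkfc*) phosphorylates the glyceraldehyde so that it can enter glycolysis, gluconeogenesis or lipid synthesis. Glycerate kinase (*Glyctk*) serves a side path in which glyceraldehyde is first oxidized to glycerate, and sorbitol dehydrogenase (*Sord*) makes fructose inside the cell from sorbitol.

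The values are counts normalized between libraries by the authors, and log2 fold changes are differences of log2(normalized count + 1). The targeted gene *Med13* (chromosome 11, GRCm38, 86267033 to 86357602) did not fall with the label. The 6 control libraries had 578 to 796 normalized counts of it and the 6 libraries labelled MED13-LKO had 646 to 1055, a log2 difference of 0.22 averaged over the diets (adjusted p = 0.201, limma with Benjamini-Hochberg adjustment over all genes tested). This value sums all exons of the gene, and which part is floxed is not given in the sources used here, so it may count exons outside the deleted part and does not test the deletion. The genotype is given as the label throughout. Totals of the normalized values were 21060000 to 24150000 in control libraries and 17310000 to 18740000 in libraries labelled MED13-LKO, and the 100 highest genes took 49.3% to 53.5% and 44.7% to 46.4% of these totals. All 6 hepatocyte markers were abundant, and their summed normalized counts ranged from 2272382 to 3001801 in control libraries and from 1686833 to 2079518 in libraries labelled MED13-LKO.

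For *Khk*, *Tkfc* and *Slc2a2* the 250 bases before the RefSeq start sites on GRCm38.p6 are shown, each 5′ to 3′ on the strand of the gene. The *Khk* stretch is chr5:30921309-30921558 on the plus strand, the *Tkfc* stretch is chr19:10604259-10604508 on the minus strand, and the *Slc2a2* stretch is chr3:28697653-28697902 on the plus strand. Capitals mark an E-box, the palindrome CACGTG, to which carbohydrate- and sterol-responsive factors of the basic helix-loop-helix family can bind. GENCODE, the source of the gene positions given here, places the starts of *Khk* and *Tkfc* further upstream than RefSeq. The *Tkfc* stretch thus lies inside the GENCODE gene (10587791 to 10605654). The later part of the *Khk* stretch, with its E-box, lies past the GENCODE start at 30921431.
Khk: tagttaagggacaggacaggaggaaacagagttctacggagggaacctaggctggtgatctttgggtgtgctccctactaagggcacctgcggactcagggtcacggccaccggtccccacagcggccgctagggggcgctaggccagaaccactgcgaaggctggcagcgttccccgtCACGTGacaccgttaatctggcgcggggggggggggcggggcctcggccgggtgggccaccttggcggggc
Tkfc: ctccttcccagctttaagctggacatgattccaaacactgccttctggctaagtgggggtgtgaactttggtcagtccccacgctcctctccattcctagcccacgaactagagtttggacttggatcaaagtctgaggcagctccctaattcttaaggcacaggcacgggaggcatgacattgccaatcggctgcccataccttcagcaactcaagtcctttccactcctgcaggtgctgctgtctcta
Slc2a2: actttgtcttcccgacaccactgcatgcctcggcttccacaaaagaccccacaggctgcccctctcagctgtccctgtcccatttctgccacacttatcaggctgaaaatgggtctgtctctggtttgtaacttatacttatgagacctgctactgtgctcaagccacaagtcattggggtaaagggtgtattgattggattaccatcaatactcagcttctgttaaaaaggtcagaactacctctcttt

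Windows from 250 bases before to 50 bases after the RefSeq start site were searched on both strands for the 7 genes and for all 32851 RefSeq windows. The E-box was found in the window of *Khk* alone among the 7, from 71 to 66 bases before the start, and 7.15% of all windows held it. A sterol response element spelled TCACNCCAC was found in the windows of *Glyctk*, from 141 to 133 bases before the start, and of *Slc2a8*, from 160 to 152 bases before it, against 1.24% of all windows. The forkhead letters GTAAACA were in none of the 7 windows and in 3.65% of all windows. Such matches describe the letters of these windows and were not linked here to the binding of any factor.

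Per kilobase of transcript, *Slc2a2* was the most abundant of the transporters and *Sord* the most abundant of the 7 genes. In fasted control mice the normalized count per kilobase of the longest coding transcript was 1780.1 ± 117 (SD, n = 2) for *Slc2a2*, 131 ± 7.46 for *Slc2a8* and 45.1 ± 16.2 for *Slc2a5*. Among the enzymes it was 764 ± 36.5 for *Khk*, 1726 ± 12.3 for *Tkfc*, 1060.2 ± 14.4 for *Glyctk* and 16970.2 ± 836 for *Sord*. The order of the transporters was the same with the mean length of the coding transcripts, while *Glyctk* and *Tkfc* then lay close together, at 2233 ± 30.4 and 2179 ± 15.5. Part of the sequence of some members occurs in other genes, so that reads could be split between them. This held for 49.6% of the 31-base words of *Glyctk*, nearly all of them in the overlapping gene D030055H07Rik, for 35.9% of those of *Sord*, all in Gm6652, and for 17.6% of those of *Tkfc*, most of them in its neighbor *Cyb561a3*. The values of these 3 genes are uncertain for this reason, but the shares describe sequence and do not give the size of the uncertainty, which was not measured. Sequence was also shared by some related genes and markers named below, among them *Hba-a1* (75.5%), *Serpina1a* (65.2%), *Hbb-bt* (59.4%), *Gapdh* (28.1%) and *Akr1b7* (27.7%). *Cyb561a3* was listed between 0 and 38.6 normalized counts per library, far below *Tkfc*, and the sharing was under 1% for *Slc2a2* and 0 for *Slc2a5*, *Slc2a8* and *Khk*.

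**Figure D1:**
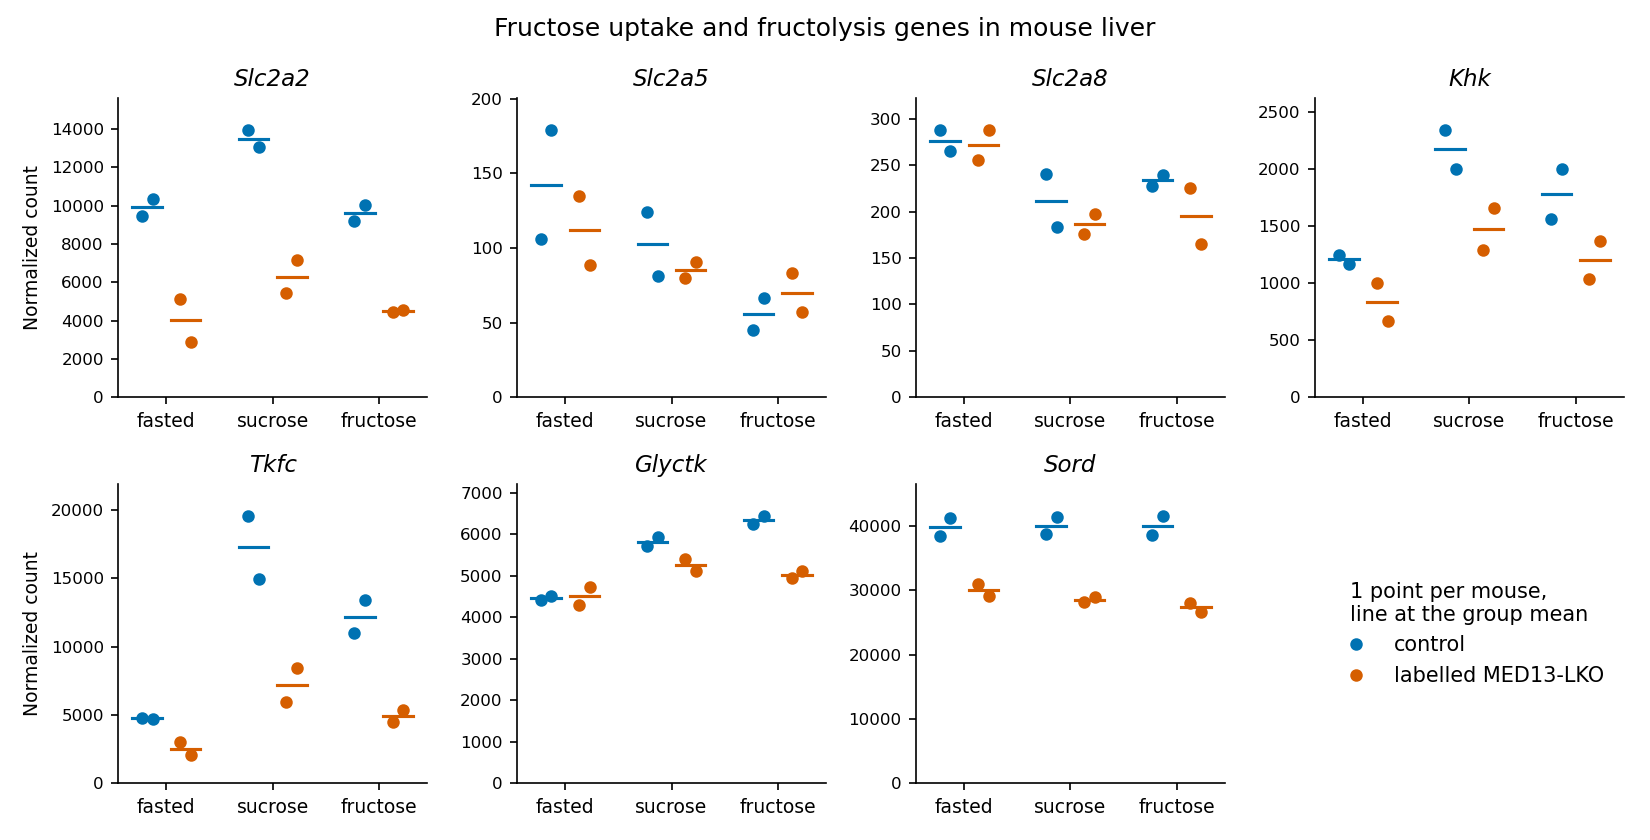
Normalized counts of the 7 genes (vertical axes from 0) in each mouse, by diet, for control libraries (blue) and libraries labelled MED13-LKO (orange), with a line at each group mean. *Slc2a2* and *Sord* separated the genotypes completely, *Tkfc* was higher in both refed groups than in fasted mice in both genotypes, and the control groups of *Sord* overlapped across the diets.

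*Slc2a2*, which encodes GLUT2 and lies on chromosome 3 from 28697903 to 28731359, was lower under the MED13-LKO label with every diet. The fasted control mice had 9451 and 10375 normalized counts, the control mice given sucrose 13950.4 and 13068, and those given fructose 9222 and 10043. Under the MED13-LKO label the fasted mice had 5147 and 2868, the mice given sucrose 5453 and 7143, and those given fructose 4464 and 4551. The lowest control mouse was above the highest mouse labelled MED13-LKO. Averaged over the diets the gene was 2.28-fold lower, a log2 difference of -1.19 (95% interval -1.48 to -0.91, adjusted p = 0.000156). The difference was -1.37 when fasted (adjusted p = 0.00541), -1.11 with sucrose (adjusted p = 0.0181) and -1.09 with fructose (adjusted p = 0.0165). The call with sucrose did not hold without either sucrose-fed control mouse or the sucrose-fed mouse 1 labelled MED13-LKO (adjusted p up to 0.154), and that with fructose did not hold without fructose-fed control mouse 2 or either fructose-fed mouse labelled MED13-LKO (adjusted p up to 0.087), while the call averaged over the diets held without each mouse in turn (adjusted p up to 0.00088). Within the control groups the sucrose-fed mice stood above the fasted and the fructose-fed mice, whose ranges overlapped. The difference of sucrose from fasted, a log2 value of 0.45 in control mice and 0.70 in mice labelled MED13-LKO, did not pass the test in either genotype (adjusted p = 0.245 and 0.1). The former passed in a fit of those 4 mice alone (adjusted p = 0.0427), and the latter passed without the fasted mouse 1 labelled MED13-LKO (adjusted p = 0.00953).

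*Slc2a5*, on chromosome 4 from 150119283 to 150144169, was the least abundant member, with 45.2 to 179 normalized counts in control mice and 57.1 to 135 in mice labelled MED13-LKO. The fasted control mice had 106 and 179, the control mice given sucrose 124 and 81.4, and those given fructose 45.2 and 66.7. Of the mice labelled MED13-LKO, the fasted ones had 135 and 88.6, the mice given sucrose 79.8 and 90.6, and those given fructose 83.1 and 57.1. Every pair of neighboring groups overlapped in the order of their means, which ran from fasted control mice at 142 ± 51.1 (SD, n = 2) down to fructose-fed control mice at 55.9 ± 15.1. Averaged over both sugars and both genotypes it was 1.62-fold lower in fed than in fasted mice, a log2 difference of -0.70 (95% interval -1.17 to -0.23, adjusted p = 0.0407). The call did not hold when every gene was tested (adjusted p = 0.0522) or without any 1 of 7 mice (both mice labelled MED13-LKO fed sucrose, fasted control mouse 2, sucrose-fed control mouse 2, fructose-fed control mouse 1, and the fasted mouse 1 and fructose-fed mouse 2 labelled MED13-LKO), and the adjusted p reached 0.177.

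*Slc2a8*, on chromosome 2 from 32972990 to 32982083 on the minus strand, had its 4 highest values in the fasted mice, 288 and 265 in control mice and 256 and 288 in mice labelled MED13-LKO. With sucrose the values were 241 and 183 in control mice and 176 and 197 in mice labelled MED13-LKO, and with fructose they were 228 and 239.7, and 226 and 165. Fed mice were 1.33-fold lower, a log2 difference of -0.42 (95% interval -0.66 to -0.17, adjusted p = 0.0241). Without any 1 of the 4 fasted mice, or without the sucrose-fed mouse 1 labelled MED13-LKO, the call did not hold, with adjusted p up to 0.0981. Neither of these low transporters passed the test by genotype label, with log2 differences averaged over the diets of -0.08 for *Slc2a5* (95% interval -0.53 to 0.36, adjusted p = 0.8) and -0.16 for *Slc2a8* (95% interval -0.39 to 0.08, adjusted p = 0.308).

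*Tkfc*, the triokinase gene on chromosome 19 from 10587791 to 10605654, rose with feeding more than any other of the 7 genes. The fasted control mice had 4784 and 4736 normalized counts, the control mice given sucrose 19536 and 14977, and those given fructose 10999 and 13379.9. Under the MED13-LKO label the fasted mice had 3033 and 2048, the mice given sucrose 5941 and 8431, and those given fructose 4498 and 5378. Fed mice stood above fasted mice in both genotypes, and fructose-fed mice labelled MED13-LKO overlapped fasted control mice. In control mice the rise was 3.59-fold with sucrose (log2 1.85, 95% interval 1.36 to 2.33, adjusted p = 0.00103) and 2.55-fold with fructose (log2 1.35, 95% interval 0.87 to 1.83, adjusted p = 0.00845). In mice labelled MED13-LKO it was 2.84-fold with sucrose (log2 1.51, adjusted p = 0.00481) and 1.97-fold with fructose (log2 0.98, adjusted p = 0.0284). Without fasted control mouse 2 the call for fructose in control mice did not hold (adjusted p = 0.0647), and without either the fasted mouse 2 or the fructose-fed mouse 2 labelled MED13-LKO the call for fructose in that genotype did not hold (adjusted p up to 0.212), nor did it in a fit of those 4 mice alone (adjusted p = 0.0551).

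*Tkfc* was also lower under the MED13-LKO label within each diet, by -0.93 on the log2 scale when fasted (adjusted p = 0.0279), -1.27 with sucrose (adjusted p = 0.00915) and -1.30 with fructose (adjusted p = 0.00678). Averaged over the diets it was 2.25-fold lower, a log2 difference of -1.17 (95% interval -1.45 to -0.89, adjusted p = 0.000156), a call that held without each mouse in turn. Within single diets it did not hold for fasted mice without either fasted control mouse or the fasted mouse 2 labelled MED13-LKO (adjusted p up to 0.171), for sucrose without sucrose-fed mouse 1 of either label (adjusted p up to 0.091), or for fructose without the fructose-fed mouse 1 labelled MED13-LKO (adjusted p = 0.0503). The feeding responses of the genotypes differed by -0.34 with sucrose (95% interval -1.02 to 0.34) and by -0.37 with fructose (95% interval -1.05 to 0.31), neither of which passed the test (adjusted p = 0.816 and 0.747).

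*Khk*, on chromosome 5 from 30921431 to 30931248, encodes the kinase that commits fructose to this route. The fasted control mice had 1249.9 and 1168 normalized counts, the control mice given sucrose 2340.3 and 1999.8, and those given fructose 1557 and 1996. In the groups labelled MED13-LKO, the fasted mice had 998 and 668, the mice given sucrose 1289 and 1660.0, and those given fructose 1037 and 1369. Within each diet both control mice were above both mice labelled MED13-LKO, while the ranges over all diets overlapped. Sucrose-fed mice were 1.79-fold higher than fasted mice in both genotypes, with a log2 difference of 0.84 in each (95% interval 0.37 to 1.31, adjusted p = 0.0391 in control mice and 0.0489 in mice labelled MED13-LKO). With fructose the log2 difference was 0.54 in each genotype (95% interval 0.07 to 1.02), and it did not pass the test (adjusted p = 0.161 and 0.16). The rise with sucrose in control mice did not hold without any 1 of its 4 mice (adjusted p = 0.0841 to 0.189). In mice labelled MED13-LKO it did not hold without fasted mouse 2, sucrose-fed mouse 1 or sucrose-fed mouse 2 (adjusted p up to 0.287), nor under 5 other settings (adjusted p = 0.052 to 0.0692).

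The genotype difference of *Khk* was -0.56 on the log2 scale within each of the 3 diets (95% interval -1.04 to -0.09 in each), and no single diet passed the test (adjusted p = 0.128, 0.161 and 0.144). Averaged over the diets, *Khk* was 1.48-fold lower in the libraries labelled MED13-LKO (95% interval of the log2 difference -0.84 to -0.29, adjusted p = 0.00817). This call held without each mouse in turn, with adjusted p up to 0.027.

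*Glyctk*, on chromosome 9 from 106152857 to 106158138, moved less. The fasted control mice had 4419 and 4505 normalized counts, the control mice given sucrose 5704 and 5918, and those given fructose 6243 and 6428. Of the mice labelled MED13-LKO, the fasted ones had 4285 and 4717, the mice given sucrose 5393 and 5117, and those given fructose 4940.0 and 5111. The fasted groups overlapped, and both fed control groups were above both fed groups labelled MED13-LKO. The gene rose 1.3-fold with sucrose (log2 0.38, adjusted p = 0.0119) and 1.42-fold with fructose (log2 0.51, adjusted p = 0.00529) in control mice. In mice labelled MED13-LKO the log2 differences were 0.22 with sucrose (adjusted p = 0.104) and 0.16 with fructose (adjusted p = 0.217). The difference between the genotypes in the response to fructose, -0.35 on the log2 scale (95% interval -0.57 to -0.12), did not pass the test over all genes (adjusted p = 0.386). The rise with sucrose in control mice did not hold without any 1 of its 4 mice (adjusted p = 0.0501 to 0.0746), nor that with fructose in a fit of its 4 mice alone (adjusted p = 0.106). With fructose *Glyctk* was lower under the MED13-LKO label (log2 -0.33, adjusted p = 0.0218), a call that did not hold without any 1 of the 4 fructose-fed mice (adjusted p = 0.0529 to 0.105), in a fit of those 4 mice alone (adjusted p = 0.166) or with equal totals of each library (log2 -0.01, adjusted p = 0.919).

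*Sord*, on chromosome 2 from 122234749 to 122265340, differed by genotype label and not detectably by diet. The fasted control mice had 38523 and 41305 normalized counts, the control mice given sucrose 38714 and 41339.7, and those given fructose 38599 and 41514. Under the MED13-LKO label the fasted mice had 30931 and 29054, the mice given sucrose 28198 and 28950.2, and those given fructose 28102 and 26635. All 6 control mice were above all 6 mice labelled MED13-LKO. Averaged over the diets *Sord* was 1.4-fold lower, a log2 difference of -0.48 (95% interval -0.59 to -0.37, adjusted p = 0.000107), with -0.41 when fasted (adjusted p = 0.0165), -0.49 with sucrose (adjusted p = 0.01) and -0.55 with fructose (adjusted p = 0.00457). The averaged call and that with fructose held without each mouse in turn, whereas the call for fasted mice did not hold without any 1 of their 4 mice (adjusted p = 0.053 to 0.124), nor that for sucrose without sucrose-fed control mouse 2 or either sucrose-fed mouse labelled MED13-LKO (adjusted p up to 0.0933). In fits of the 4 mice compared alone *Sord* passed the test neither with sucrose (adjusted p = 0.0534) nor with fructose (adjusted p = 0.108). The log2 difference of fed from fasted mice was -0.05 (95% interval -0.16 to 0.07, adjusted p = 0.546).

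**Figure D2:**
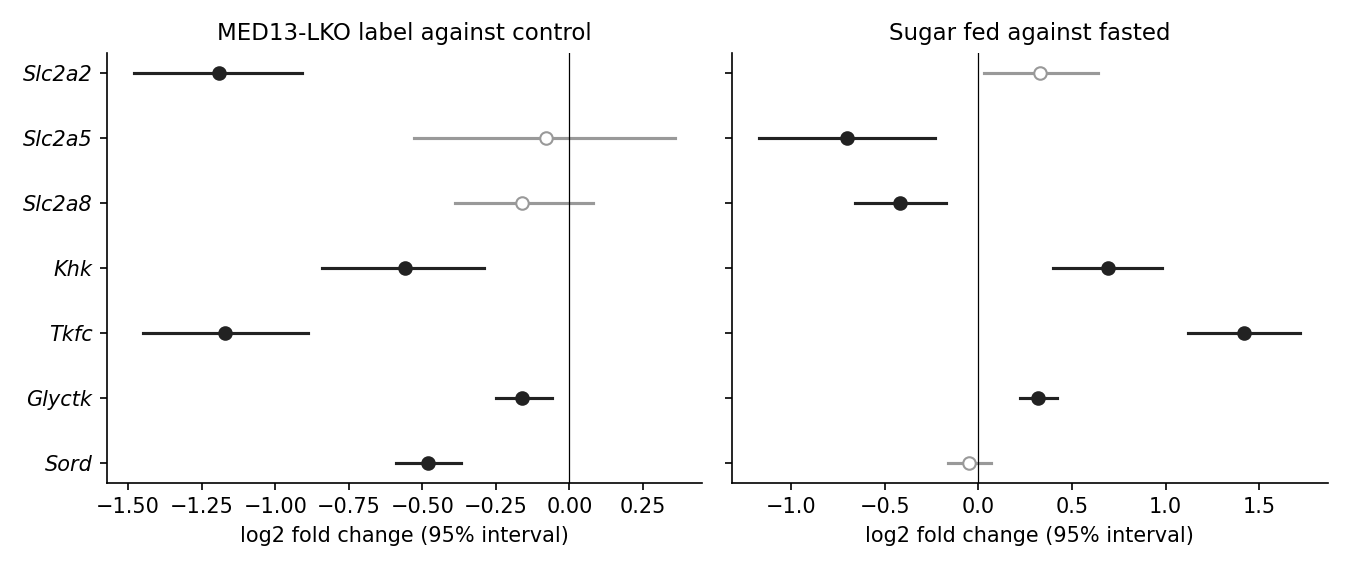
Log2 fold changes (horizontal axes) of the 7 genes with 95% intervals, for libraries labelled MED13-LKO against control averaged over the 3 diets (left) and for fed against fasted mice averaged over genotypes and sugars (right), with filled points where the adjusted p was below 0.05. *Slc2a2* and *Tkfc* lay near -1.2 in the left panel, and *Tkfc*, at 1.42, was the highest in the right panel.

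In the comparison of genotypes averaged over the diets, 5 of the 7 genes were called lower (*Slc2a2*, *Tkfc*, *Khk*, *Sord* and *Glyctk*) and none higher, where 13.2% of all genes tested were called lower. The median log2 difference of the 7 genes was -0.48, and that of all genes was 0.01. Within single diets the number called lower was 3 of 7 when fasted, against 4.86% of all genes, 3 of 7 with sucrose, against 3.33%, and 4 of 7 with fructose, against 3.95%. The 3 genes called when fasted and with sucrose were *Slc2a2*, *Tkfc* and *Sord*, and *Glyctk* joined them with fructose. For 2 of the 7 genes, *Slc2a2* and *Sord*, all 6 libraries labelled MED13-LKO were below all 6 control libraries, as they were for 4.93% of all genes. Within single diets these counts rested on few mice, and without 1 mouse they ranged from 1 to 2 when fasted, from 0 to 2 with sucrose and from 1 to 3 with fructose. The count of 0 came without the sucrose-fed mouse 1 labelled MED13-LKO.

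Cell type markers moved with the genotype label as well, where 12.1% of all genes were called higher and 13.2% lower. Of 6 hepatocyte markers 5 were called lower (*Cps1*, *Serpina1a*, *Alb*, *Ttr* and *Apoa1*), with log2 differences of -0.36 to -0.69, and of 5 Kupffer cell markers 2 were called higher (*Marco*, log2 1.22, and *Cd5l*, log2 0.63). The summed Kupffer cell markers ranged from 2904 to 4036 normalized counts in control libraries and from 3898 to 5209.7 in libraries labelled MED13-LKO. Of 4 markers of the sinusoidal endothelium 3 were called higher, and their sums ranged from 2632 to 3340.3 and from 3204 to 4237. Of the other lists, stellate cell and cholangiocyte markers each had 1 gene called lower, of 4 and 3 tested, erythroid markers had 2 of 3 called lower, and the 1 leukocyte and the 1 enterocyte marker tested were higher. No pancreatic acinar marker passed the filter. With equal totals of each library, which called 57.5% of all genes higher and 3.28% lower, 2 of the 6 hepatocyte markers were lower (*Cps1* and *Serpina1a*), and all 5 Kupffer cell, all 4 endothelial and 2 of the 4 stellate cell markers were higher. Under that scaling 1 erythroid marker was higher and 1 lower, and no cholangiocyte marker was called. The part of these shifts in the differences of *Slc2a2*, *Tkfc*, *Khk*, *Glyctk* and *Sord* was not tested, and in bulk liver fewer cells of a type and less RNA per cell cannot be told apart.

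The genotype differences also depended on how libraries were scaled. Rescaling every library to the same total of normalized counts moved the median log2 difference of all genes from 0.01 to 0.32, and the share of calls that were higher from 47.7% to 94.6%. Under that scaling *Slc2a2* (log2 -0.87, adjusted p = 0.000376), *Tkfc* (log2 -0.85, adjusted p = 0.00047) and *Sord* (log2 -0.17, adjusted p = 0.0141) stayed lower, *Khk* did not pass the test (log2 -0.25, adjusted p = 0.113), and *Glyctk* turned from -0.16 (adjusted p = 0.0213) to 0.16 (adjusted p = 0.0153). Within single diets it left *Slc2a2* called throughout, *Tkfc* called with each sugar but not when fasted (adjusted p = 0.0633), and *Sord* called in none (adjusted p = 0.546, 0.116 and 0.0664), and the difference of *Glyctk* with fructose was -0.01. Without any 1 of 5 mice the deposited values also gave no call for *Glyctk* (fasted control mouse 2, sucrose-fed control mouse 2, and the fasted mouse 1, sucrose-fed mouse 2 and fructose-fed mouse 1 labelled MED13-LKO), with adjusted p up to 0.0634.

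**Figure D3:**
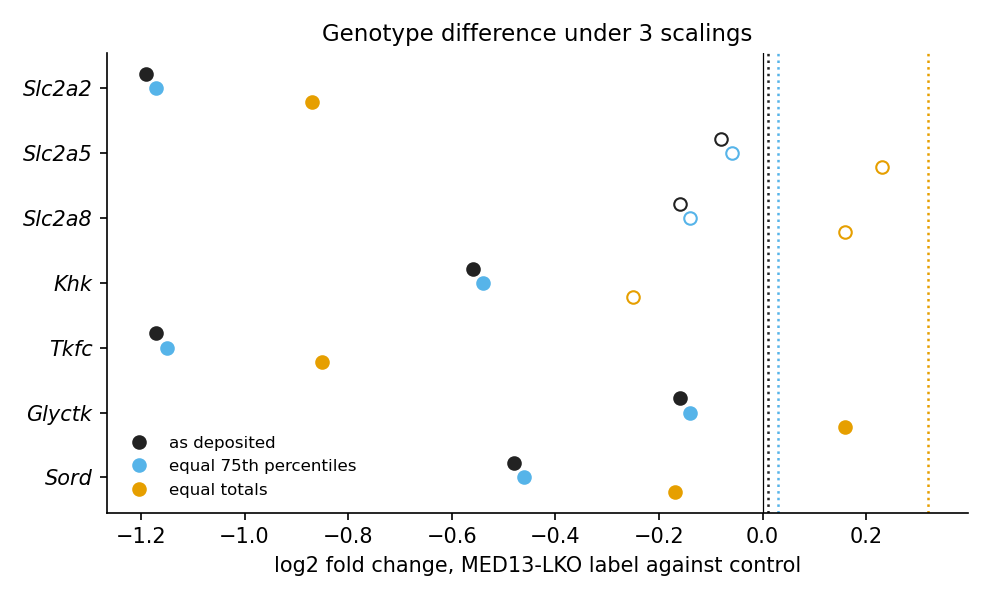
Log2 fold changes (horizontal axis) of libraries labelled MED13-LKO against control, averaged over the diets, with the deposited values, with equal 75th percentiles and with equal totals of each library. Filled points had an adjusted p below 0.05, and dotted lines stand at the median of all genes, which was 0.32 with equal totals, where *Glyctk*, *Slc2a5* and *Slc2a8* lay above 0 but below that median.

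Averaged over genotypes and sugars, feeding raised 3 of the 7 genes and lowered 2, against 10.7% of all genes called higher and 11% called lower. The genes called higher were *Tkfc* (log2 1.42, adjusted p = 0.000113), *Khk* (log2 0.69, adjusted p = 0.00477) and *Glyctk* (log2 0.32, adjusted p = 0.00101), which are the kinases of the route, and those called lower were the transporter genes *Slc2a5* and *Slc2a8*. The median log2 difference was 0.32 over the 7 genes and -0.01 over all genes. *Slc2a2* was 0.33 higher on the log2 scale (95% interval 0.03 to 0.64) and did not pass the test (adjusted p = 0.108), except without the fasted mouse 1 labelled MED13-LKO (adjusted p = 0.00476). The 3 kinases were called without each mouse in turn and under each scaling, whereas with equal totals *Slc2a5* and *Slc2a8* lost their calls (adjusted p = 0.0694 and 0.0813) and *Slc2a2* was called higher (log2 0.44, adjusted p = 0.0361). That scaling called 19.1% of all genes higher and 5.76% lower with feeding.

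Markers of some cell types moved with feeding too. Of 6 hepatocyte markers 2 were called lower, the tyrosine aminotransferase gene *Tat* (log2 -1.89, adjusted p = 3.87e-05) and the urea cycle gene *Cps1* (log2 -0.45, adjusted p = 0.00469), and the summed markers ranged from 2077366 to 3001801 normalized counts in the 4 fasted mice and from 1686833 to 2565556 in the 8 fed mice. Of 3 erythroid markers the globin genes *Hbb-bt* (log2 -0.65) and *Hba-a1* (log2 -0.55) were called lower, with sums of 3504 to 5005 in fasted and 2484 to 4314 in fed mice. Of 4 endothelial markers *Clec4g* was lower (log2 -0.37), with sums of 3152 to 4237 and 2632 to 3340.3. Of 4 stellate cell markers *Col1a1* was higher (log2 0.50) and *Reln* lower (log2 -0.23), with sums of 4929 to 5768 and 4465 to 6000.2. None of the Kupffer cell, cholangiocyte, leukocyte or enterocyte markers tested was called (limma). With equal totals neither globin gene nor *Reln* was called, and the cholangiocyte marker *Spp1* was called higher. The part of these shifts in the feeding responses of the 7 genes was not tested.

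Split by sugar and genotype, 3 of 7 genes were called higher with sucrose in control mice, against 4.85% of all genes, and 2 of 7 with fructose, against 2.79%. In the mice labelled MED13-LKO 2 of 7 were called higher with sucrose, against 2.23%, and 1 of 7 with fructose, against 2.94%. *Tkfc* was called in all 4 of these comparisons, *Khk* in both with sucrose and *Glyctk* in both in control mice. The comparisons with both sugars share their fasted mice. No member was called lower in any of the 4, and *Slc2a5* came nearest, with a log2 difference of -1.31 for fructose in control mice (95% interval -2.08 to -0.55, adjusted p = 0.0558, and 0.0458 without fructose-fed control mouse 2).

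**Figure D4:**
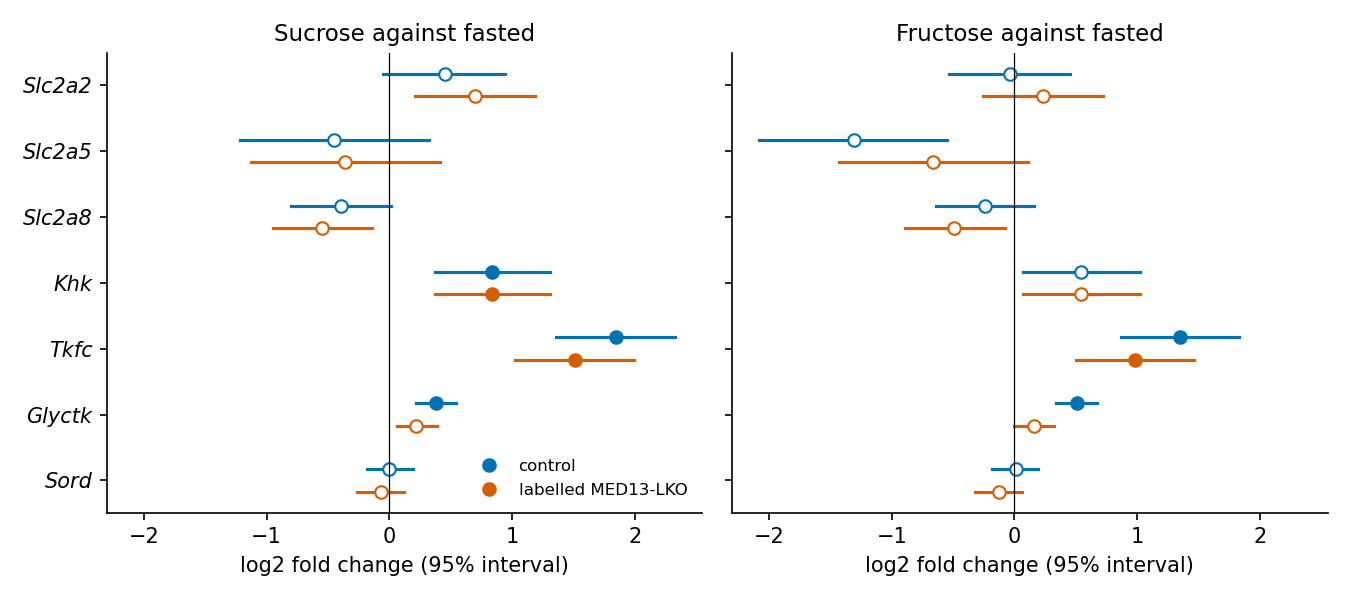
Log2 fold changes (horizontal axes) of sucrose-fed (left) and fructose-fed mice (right) against fasted mice, for control mice (blue) and mice labelled MED13-LKO (orange), with 95% intervals and with filled points where the adjusted p was below 0.05. *Tkfc* was called in both panels and both genotypes, and the points of *Khk* for the 2 genotypes coincided at 0.84 and 0.54.

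Fructose-fed and sucrose-fed mice were also compared directly. Sucrose contains fructose, so both groups received it, and the comparison does not isolate the action of fructose on its own pathway. None of the 7 genes was called between fructose and sucrose in control mice, in mice labelled MED13-LKO or averaged over both, and 0.0404% of all genes were called in each of these comparisons (limma). At an unadjusted p under 0.05 there were 2, 1 and 3 of the 7 genes, against 1061, 951 and 1172 of all genes. Averaged over the genotypes the log2 differences of fructose from sucrose were -0.58 for *Slc2a5* (95% interval -1.12 to -0.04), -0.51 for *Tkfc* (-0.85 to -0.17), -0.48 for *Slc2a2* (-0.83 to -0.13) and -0.30 for *Khk* (-0.63 to 0.04), with adjusted p from 0.385 to 0.568. For *Glyctk* it was 0.03 (-0.08 to 0.14), for *Sord* -0.03 (-0.16 to 0.10) and for *Slc2a8* 0.11 (-0.18 to 0.39). The normalized counts of *Tkfc* with fructose were below those with sucrose in both genotypes with no overlap between those groups.

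The feeding responses of the genotypes were likewise not told apart for any of the 7 genes. None was called for sucrose, where 0.146% of all genes were, or for fructose, where 0.0243% were (limma), and at an unadjusted p under 0.05 there were 0 and 1 of the 7 genes against 1055 and 1170 of all genes. The intervals were wide, and that of *Slc2a5* for fructose, for example, ran from -0.43 to 1.74 around 0.65 on the log2 scale.

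The steps around these genes were described with lists of related genes, whose counts stand beside 10.7% of all genes called higher and 11% lower with feeding, and 12.1% higher and 13.2% lower by genotype label. With equal totals these shares were 19.1% and 5.76% with feeding, and 57.5% and 3.28% by genotype label. Of 9 genes of the triose steps and those next to them, feeding raised 3 and lowered none, and with equal totals it raised 5, *Aldoa* and *Tpi1* being added. Among those raised were *Gpd1*, which makes glycerol 3-phosphate from dihydroxyacetone phosphate (log2 0.76, adjusted p = 6.46e-05), and *Gapdh* (log2 0.27, adjusted p = 0.0251). Without any 1 of 5 mice *Gapdh* was not called (both fasted control mice, and the fasted, sucrose-fed and fructose-fed mouse 2 labelled MED13-LKO), with adjusted p up to 0.115.

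By genotype label 4 of the 9 were lower, among them *Gapdh* (log2 -0.46, adjusted p = 0.000948) and the triose isomerase gene *Tpi1* (log2 -0.24, adjusted p = 0.00102). With equal totals none of the 9 was called lower and 4 were called higher, and the log2 difference became -0.15 for *Gapdh* (adjusted p = 0.0837) and 0.07 for *Tpi1* (adjusted p = 0.133). The log2 difference of *Gpd1* by genotype label was 0.02 (95% interval -0.12 to 0.15).

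Of the other GLUT genes, 7 of 9 were in the table and 3 passed the filter. Feeding raised *Slc2a4*, the insulin-responsive transporter GLUT4 of muscle and fat (log2 2.09, adjusted p = 0.00209), from a low level, 4.1 to 119 normalized counts over all mice, and lowered *Slc2a1*, the widely expressed GLUT1 (log2 -0.90, adjusted p = 0.00603). By genotype label the adjusted p was 0.136 for *Slc2a4* and 0.124 for *Slc2a1*, and *Slc2a9*, a urate transporter, passed neither test (log2 -0.17 with feeding, adjusted p = 0.213, and -0.07 by genotype, adjusted p = 0.583). With equal totals *Slc2a1* and *Slc2a9* were called higher in the libraries labelled MED13-LKO.

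From a list of aldose reductases and other polyol pathway genes, none of 7 genes tested was called with feeding (limma, with 1 at an unadjusted p under 0.05), and 2 were called by genotype label. Not all genes of this list supply the sorbitol that *Sord* oxidizes. *Akr1b7*, an aldose reductase gene, was higher (log2 1.84, 95% interval 1.05 to 2.62, adjusted p = 0.00448) at 23.6 to 57.6 normalized counts against 2.2 to 16.9 in control mice, and *Dcxr*, which reduces L-xylulose, was lower (log2 -0.43, adjusted p = 0.00922). *Akr1b3*, the main aldose reductase gene, was at 126 to 203 normalized counts in control mice and 111 to 202 in mice labelled MED13-LKO, and its log2 difference was -0.03 (95% interval -0.36 to 0.30). With equal totals the difference of *Dcxr* was -0.11 (adjusted p = 0.333), *Akr1b7* stayed higher, *Akr1a1* and *Xylb* were called higher as well, and *Xylb* was also called higher with feeding.

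Fructose phosphorylation consumes ATP and feeds purine breakdown, and of 7 genes tested on the purine and urate steps feeding raised 1, the AMP deaminase gene *Ampd2* (log2 0.91, adjusted p = 0.000515). Its normalized counts were 372 to 485 in the fasted mice and 584 to 1064 in the fed mice. By genotype label *Uox*, the urate oxidase gene, was lower (log2 -0.71, adjusted p = 3.73e-05), and *Nt5e*, which makes adenosine from AMP (log2 1.26, adjusted p = 0.00225), and *Xdh*, which makes urate (log2 0.36, adjusted p = 0.00151), were higher. For *Uox* all 6 libraries labelled MED13-LKO were below all 6 control libraries, as they were for 4.93% of all genes. For *Nt5e* and *Xdh* they were all above, a direction for which the share of all genes was not computed. Each of the 3 calls held with equal totals. That scaling added *Ampd2* and *Nt5c2* to the genes called higher by genotype label, 4 in all, and *Nt5c2* to those raised by feeding, 2 in all.

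Of 6 hexose kinase genes tested, feeding lowered 1, *Adpgk* (log2 -0.68, adjusted p = 0.0296), a call that did not hold without any 1 of 8 mice (both fasted control mice, sucrose-fed control mouse 1, and the fasted mice, the sucrose-fed mice and the fructose-fed mouse 2 labelled MED13-LKO, adjusted p up to 0.115) or with equal totals (adjusted p = 0.0604). With equal totals *Hk3* was called higher with feeding, and *Hk3* and *Adpgk* by genotype label. Of 8 genes known to respond to carbohydrate, feeding raised 5 and lowered 1, and with equal totals it raised 5 and lowered none. The largest averaged differences were in *Fasn*, the fatty acid synthase gene (log2 3.48, adjusted p = 2.93e-05), the pyruvate kinase gene *Pklr* (log2 1.91, adjusted p = 5.09e-05) and *Fgf21*, a hormone induced by sugar (log2 1.60, adjusted p = 0.0207). *Fgf21* was not called without fasted control mouse 1 or without the fasted mouse 2 labelled MED13-LKO, with adjusted p up to 0.0841. With a pseudocount of 10 in place of 1 its averaged difference with feeding was 0.87 and was not called (limma, adjusted p = 0.0584). The size of its log2 differences thus depended on the pseudocount. The normalized counts of *Fgf21* were 1.13 and 4.82 in fasted control mice, 25.1 and 73.5 with sucrose and 16.6 and 25.8 with fructose. Under the MED13-LKO label the fasted mice had 50.7 and 34.4, the sucrose-fed mice 90.2 and 30.3, and the fructose-fed mice 33.5 and 39.8. The log2 difference from fasted in control mice was 3.65 with sucrose (adjusted p = 0.0103) and 2.63 with fructose (adjusted p = 0.0518), and in mice labelled MED13-LKO it was 0.32 and -0.19 (adjusted p = 0.842 and 0.904), where the groups overlapped. The difference between the genotypes in these responses, -3.33 with sucrose and -2.81 with fructose, did not pass the test (adjusted p = 0.37 and 0.442).

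By genotype label 3 of those 8 genes were lower and 2 higher, with log2 differences of -0.76 for *Fasn* (adjusted p = 0.0264), -0.66 for *Pklr* (adjusted p = 0.00858) and 1.56 for *Fgf21* (adjusted p = 0.0159). *Fgf21* was called by genotype label in fasted mice (log2 3.60, adjusted p = 0.0103), and not with sucrose (log2 0.28, adjusted p = 0.876) or fructose (log2 0.79, adjusted p = 0.531). With equal totals 3 of the 8 genes were higher and none lower. The call for *Fasn* did not hold without any 1 of 6 mice (control mouse 1 of each diet, fasted mouse 2, sucrose-fed mouse 1 and fructose-fed mouse 1 labelled MED13-LKO), with adjusted p up to 0.0731, and with equal totals neither *Fasn* (adjusted p = 0.0914) nor *Pklr* (adjusted p = 0.0619) was called lower.

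Across the 12 libraries, which share diets and genotypes, *Khk* and *Tkfc* ran together. As a description, Pearson's r of log2 values was 0.97 between them. It was 0.86 between *Slc2a2* and *Sord* and 0.83 between *Slc2a2* and *Khk*, while it was -0.65 between *Slc2a5* and *Glyctk*. Among 11828 named protein-coding genes tested, the genes closest to *Khk* were *Pygl*, the liver glycogen phosphorylase gene (0.976), *Tkfc* (0.975) and *Eno1*, an enolase gene (0.956). *Pygl* (0.992) and *Eno1* (0.983) were also the closest to *Tkfc*, followed by *Hcn3* (0.979), which overlaps *Pklr* and holds 21.1% of its 31-base words. The closest to *Slc2a2* were *Car3*, a carbonic anhydrase gene (0.978), *Glrx5* (0.975) and *Chd9* (0.973), and the closest to *Sord* were *Cyp2d10* (0.988), *Sil1* (0.985) and *Pigr* (0.981). The closest to *Glyctk*, *Depdc7* (0.930), and to *Slc2a8*, *Cnppd1* (0.932), were less alike.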

How the data were processed

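The authors isolated liver RNA with the RNeasy kit and had it sequenced at Novogene as paired 150 bp reads, trimmed the reads with Trim Galore 0.6.5, estimated counts per transcript with kallisto 0.46.0 and normalized them with DESeq2 1.24.0, with mm10 named in the submitters' processing notes. The deposited signal values are normalized counts per Ensembl gene. How transcripts were summed to genes is not given in the sources used here, and the values are not whole, so no count test was run. Symbols and positions came from GENCODE M21 on GRCm38, where 16212 of 16346 identifiers had a symbol. All 7 genes matched RefSeq promoter windows.

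Genes with a mean of at least 10 were tested in limma 3.58.1 (R 4.3.3) on log2(normalized count + 1), with 1 mean for each of 6 groups, all 12 libraries in 1 fit, moderation following the mean, and Benjamini-Hochberg adjustment over all 12366 genes. Genes with an adjusted p below 0.05 are called, and intervals are 95% intervals from the moderated standard error. The fit was tested on simulated data. P-values rest on the spread between mice within groups, pooled over the 6 groups (6 residual degrees of freedom). Moderation across genes raised the degrees of freedom to 9.98. Since the values are not read totals, no counting error is given. Groups and replicate numbers came from the sample titles.

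The 7 genes, the related lists, the markers and the motifs were chosen with earlier results of these data known. From each related list up to 3 called genes with the largest change were named in each averaged comparison, and for each of the 7 genes the 3 most correlated protein-coding genes were taken. Results for some genes that these rules name are not reported here. Alternatives were pseudocounts of 0.1 and 10, no filter, equal 75th percentiles, equal totals, the replicate number as a block, only the groups compared, robust moderation and leaving out each library. Python 3.11.15, NumPy 2.4.6, pandas 2.3.3 and matplotlib 3.10.9 were used.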

Additional observations from a re-analysis of the deposited data

How the results depend on the processing

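Of 1201 single values recomputed under an alternative, 1081 kept their direction and their side of the threshold, 104 lost their call, 5 gained one and 11 changed sign. Equal totals changed most. By genotype label averaged over the diets it turned *Slc2a5* to 0.23, *Slc2a8* and *Glyctk* to 0.16 and *Tpi1* to 0.07 on the log2 scale, and with feeding it turned *Sord* to 0.06. It left 2 members called lower with fructose (*Slc2a2* and *Tkfc*) instead of 4.

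For sucrose in the mice labelled MED13-LKO, only *Tkfc*, 1 member instead of 2, was called with a pseudocount of 0.1, with no filter, with robust moderation and with only the groups compared. Fits of only the groups compared also called 1 member instead of 2 for fructose in control mice, 0 instead of 1 for fructose in mice labelled MED13-LKO, and 2 instead of 4 by genotype label with fructose.

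Mice with the same number in the sample titles did not deviate together (r from -0.142 to 0.078), so the numbers were not taken to pair them. The names of the deposited columns number the fasted mice 1 and 2 and the fed mice 2 and 3. Between fasted and fed mice the title numbers thus differ from the column numbers, and a block by the column numbers was not fitted. A replicate block in the fit called 1 member instead of 2 for sucrose in mice labelled MED13-LKO, 2 instead of 3 for sucrose in control mice and 4 instead of 5 for feeding. A crossed pairing by genotype label with fructose, chosen after seeing the data, called 4 as before.

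Leaving out 1 mouse leaves 1 mouse in its group, assumed to vary like the others. The members called then ranged from 1 to 1 for sucrose and from 1 to 3 for fructose in control mice, and from 1 to 3 and from 0 to 1 in mice labelled MED13-LKO. By genotype label they ranged from 1 to 2 when fasted, from 0 to 2 with sucrose, from 1 to 3 with fructose and from 4 to 5 averaged over the diets, and with feeding from 3 to 5. The log2 difference of *Slc2a5* by genotype label ranged from -0.21 to 0.04, and that of *Slc2a8* between fructose and sucrose from -0.01 to 0.22. None of the alternatives called a member between the sugars or for an interaction. With 2 mice per group, and read totals unknown, small differences in low genes such as *Slc2a5* were not resolved. The causes of these changes were not tested.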
